A study of Homo sapiens with 39 samples.

Results

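The mRNA levels of 10 genes for endoplasmic reticulum chaperones and folding enzymes were followed across 39 RNA-seq libraries of HCC1428-LTED cells. The genes were CALR, CANX, HSPA5, HSP90B1, PDIA3, PDIA4, PDIA6, HYOU1, EDEM1 and DNAJB9, taken by symbol from a table of 46706 symbols. All 10 were found, and all 10 passed the expression minimum that left 14404 genes for testing. HCC1428-LTED is a single human breast cancer line, positive for estrogen receptor alpha, that was adapted to long-term estrogen deprivation and kept here in charcoal-stripped serum. Every group therefore lacked added estrogen, the vehicle cells included. Cells were exposed for 24 h to AZD9496, AZD-SAR, GDC-0810, GDC-SAR, SAR439859 or Fulvestrant, each at 30 and 300 nM, or to DMSO vehicle. These 13 groups held 3 libraries each. The ligands bind the estrogen receptor, and the labels class AZD9496, GDC-0810, SAR439859 and Fulvestrant as degraders of it. The DMSO libraries are also labelled as untreated. GDC-SAR is labelled as a hybrid with the GDC-0810 scaffold and the SAR439859 side chain, and AZD-SAR as one with the AZD9496 scaffold and the same side chain. Nothing in the labels says that the 3 libraries of a group came from separate cultures, so the p-values measure the spread between these libraries, which may be technical.

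Secreted and membrane proteins enter the endoplasmic reticulum unfolded. There HSPA5 (BiP), an HSP70 chaperone, holds exposed hydrophobic stretches, while calnexin (CANX) and calreticulin (CALR) hold proteins through their N-linked glycans together with the disulfide isomerase PDIA3. When unfolded protein builds up, the sensors ATF6, IRE1 (ERN1) and PERK (EIF2AK3) start the unfolded protein response, in which ATF6 and the spliced form of XBP1 raise transcription of chaperone and degradation genes. A known binding element of that response, the endoplasmic reticulum stress element (ERSE), lies close to the start sites of many chaperone genes.

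The promoters are shown because they hold the elements through which these genes are known to be co-regulated, and they allow the genes that moved to be set beside those that did not. RefSeq promoters (GRCh38.p14, 250 bases before to 50 after each start) were available for 9 of the 10 genes, PDIA3 being the exception, and were searched on both strands. The ERSE was searched as CCAAT, any 9 bases and CCACG, 19 letters in all, and the related ERSE-II as ATTGG, any single base and CCACG, 11 letters in all. An ERSE was present in 5 of the 9 genes (CALR, CANX, HSP90B1, HSPA5 and PDIA6) and in 25 of 27305 genes in all, 0.0916%. HYOU1 had 2 ERSE-II matches, an element found in 0.0696% of genes. EDEM1, PDIA4 and DNAJB9 held neither. The core of the unfolded protein response element (TGACGTGG) was also searched. It was in 1 of the 9 genes, HYOU1, and in 0.927% of all genes. The sequences below read 5′ to 3′ on the strand of the gene, with 20 bases on each side of the outer matches, and the capitals mark the ERSE or ERSE-II matches on either strand.
CALR, chr19:12938364-12938422, plus strand, 1 match: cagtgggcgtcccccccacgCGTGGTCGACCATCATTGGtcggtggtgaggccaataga
CANX, chr5:179698758-179698816, plus strand, 1 match: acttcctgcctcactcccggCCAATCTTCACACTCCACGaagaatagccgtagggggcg
HSPA5, chr9:125241371-125241429, minus strand, 1 match: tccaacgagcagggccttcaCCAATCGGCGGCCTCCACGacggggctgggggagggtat
PDIA6, chr2:10812833-10812891, minus strand, 1 match: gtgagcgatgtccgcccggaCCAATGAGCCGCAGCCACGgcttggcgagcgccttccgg
HSP90B1, chr12:103930196-103930359, plus strand, 2 matches: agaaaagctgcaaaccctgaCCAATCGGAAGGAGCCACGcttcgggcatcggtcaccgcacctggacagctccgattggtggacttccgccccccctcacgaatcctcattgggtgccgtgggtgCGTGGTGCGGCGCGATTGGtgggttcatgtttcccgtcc
HYOU1, chr11:119057254-119057410, minus strand, 2 matches: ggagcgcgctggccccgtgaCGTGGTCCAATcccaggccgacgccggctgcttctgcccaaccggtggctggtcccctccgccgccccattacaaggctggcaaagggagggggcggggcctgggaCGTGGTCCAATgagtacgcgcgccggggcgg
A plain CCAAT box, which every ERSE contains, was in all 9 genes but also in 39.7% of all genes. The palindromic estrogen response element (GGTCA, any 3 bases, TGACC) was in 0 of the 9 genes and in 0.0732% of all genes. The letter matches describe the reference sequence in these windows, and no binding was measured.

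Values are deposited TPM, a transcript abundance scaled for gene length and for the library total. Group values are mean ± SD over n = 3 libraries. Differences are log2 differences of TPM + 1 with a standard error (SE) or 95% interval from limma, fitted to all 14404 genes, and a gene was called at a Benjamini-Hochberg adjusted p below 0.05. Libraries listed 15818 to 26756 genes above 0, and sequencing depth is unknown because only TPM were used. SAR439859 30 nM replicate 3 had the fewest genes above 0 and the lowest mean correlation with its own group, 0.890. Luminal markers were high in every library, with ESR1 at 250 to 568 TPM and EPCAM at 53.5 to 99.4 TPM. The 12 markers of other lineages summed to 15.1 to 35 TPM in treated libraries and 15.3 to 19 TPM in DMSO libraries, and the 8 luminal markers to 6588 to 13520 TPM in treated libraries and 6545 to 7403 TPM in DMSO libraries. The part of these shifts in the results was not tested. KRT5, a basal keratin, was at 0 in 19 libraries, the collagen gene COL1A2 in 25 and the leukocyte marker PTPRC in 30. Of the same marker lists, COL1A1 (7.32 to 17.8 TPM), CD68 (4.09 to 12.3 TPM) and TP63 (0.23 to 1.47 TPM) were above 0 in every library. Of the 3 DMSO libraries, 2 carried the same index sequences as treated libraries, so a separate pooling of DMSO and an effect of treatment cannot be told apart in the comparisons with DMSO. In bulk RNA, a change in the cells that carry a transcript and a change in its amount per cell cannot be told apart either.

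CALR, HSP90B1 and CANX were the most abundant of the 10 transcripts on the per-length TPM scale, with medians over the 36 treated libraries of 668, 353 and 315 TPM. HSPA5, PDIA3 and PDIA6 followed with medians of 74.3, 66.5 and 41.5 TPM. HYOU1, PDIA4, DNAJB9 and EDEM1 had treated medians of 25.9, 23.3, 20.7 and 18.6 TPM. HYOU1 varied most within groups, with a median coefficient of variation of 22.1%, against 5.82% for HSPA5 and 7.47% for CALR. The plot of TPM per library shows these levels for all groups.

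**Figure D1:**
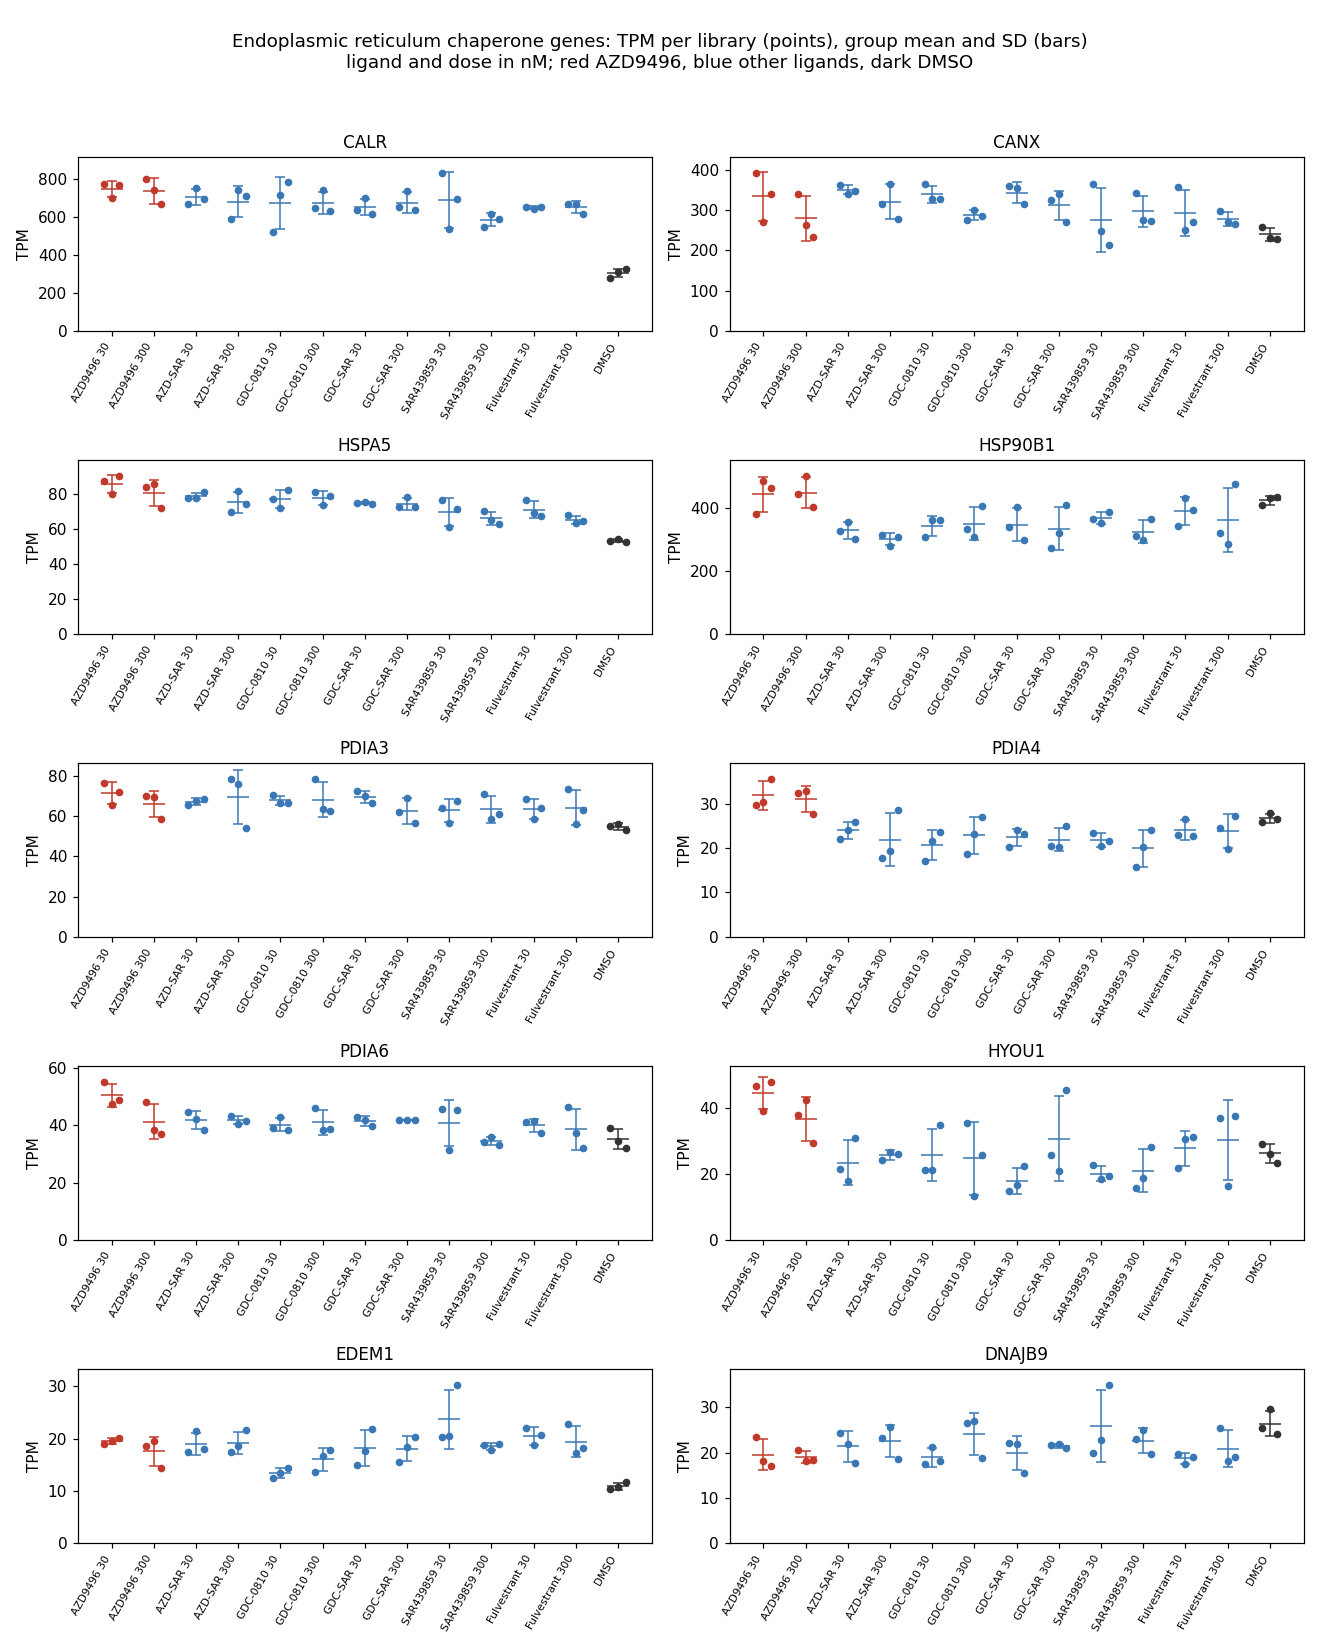
TPM of the 10 chaperone genes in each library (points) with group mean and SD (bars, n = 3), for AZD9496 (red), the other ligands (blue) and DMSO (dark), at 30 and 300 nM. For CALR, HSPA5 and EDEM1 all 36 treated libraries lie above the 3 DMSO libraries, and PDIA4 reaches 27.7 to 35.6 TPM with AZD9496, against 15.7 to 28.7 TPM with the other ligands.

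The first comparison set each ligand and dose against DMSO, 12 comparisons that share the same 3 DMSO libraries. CALR, HSPA5 and EDEM1 rose with nearly every ligand, not with AZD9496 alone. CALR was called higher in 12 of 12 comparisons, HSPA5 in 12 of 12 and EDEM1 in 11 of 12. These 3 genes were also higher in all 36 treated libraries than in any DMSO library, an ordering shown by 4.08% of all genes tested, and 1.69% of genes were called higher in all 12 comparisons. The other 7 genes were called in at most 3 comparisons each. Orderings of single ligands against DMSO are given below for some genes, and the share of all genes with them was not counted.

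With AZD9496, 5 of the 10 genes were called higher than in DMSO at 30 nM, as were 9.21% of all genes tested, and 3 at 300 nM, as were 3.71%. Median-of-ratios scaling ended the 30 nM calls of PDIA3 and PDIA6 (limma adjusted p = 0.513 and 0.133) and left those of CALR, HSPA5 and EDEM1. It also brought DNAJB9 to a call lower than DMSO (0.0409). With 30 nM GDC-SAR, counted below, the same scaling ended the PDIA3 call alone (0.0809). The counts and medians in this paragraph are of values as deposited. The median log2 difference over the 10 genes was 0.49 at 30 nM, against 0.18 over all genes tested, and 0.24 at 300 nM, against 0.10. With AZD-SAR, 4 were called higher at 30 nM (11.9% of all genes). At 300 nM AZD-SAR, 3 were called higher (12.7%) and 1 lower (12.8%). With GDC-0810, 3 were called higher at 30 nM (7.95%) and 3 at 300 nM (6.99%). For GDC-SAR the counts were 5 at 30 nM (11.4%) and 3 at 300 nM (9.76%). SAR439859 gave 3 at 30 nM (15.3%) and 3 at 300 nM (11.2%), and Fulvestrant 3 at 30 nM (11.3%) and 3 at 300 nM (11.1%). The 10 transcripts summed to 1846 ± 78.8 TPM with 30 nM and 1754 ± 175 TPM with 300 nM AZD9496 and to 1449 to 1658 TPM on average with the other ligands, against 1200 ± 15.7 TPM with DMSO. Without CALR the sums were 1100 ± 38.8 TPM with 30 nM and 1019 ± 111 TPM with 300 nM AZD9496 and 866 to 954 TPM with the other ligands, against 897 ± 8.49 TPM with DMSO. These sums are of TPM as deposited, and sums after median-of-ratios scaling were not computed. That scaling divides TPM by 1.08 to 1.15 in the 30 nM AZD9496 libraries and by 0.94 to 0.97 in the DMSO libraries. At 30 nM the divisors were 0.96 to 0.98 for GDC-0810, 0.97 to 1.01 for GDC-SAR and 0.99 to 1.05 for AZD-SAR. They were 1.01 to 1.06 for Fulvestrant and 0.96 to 1.19 for SAR439859. The lead of 30 nM AZD9496 in these sums over DMSO, GDC-0810 and GDC-SAR is therefore smaller on the scaled values. The grid of log2 differences shows the calls gathered in the CALR, HSPA5 and EDEM1 columns.

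**Figure D2:**
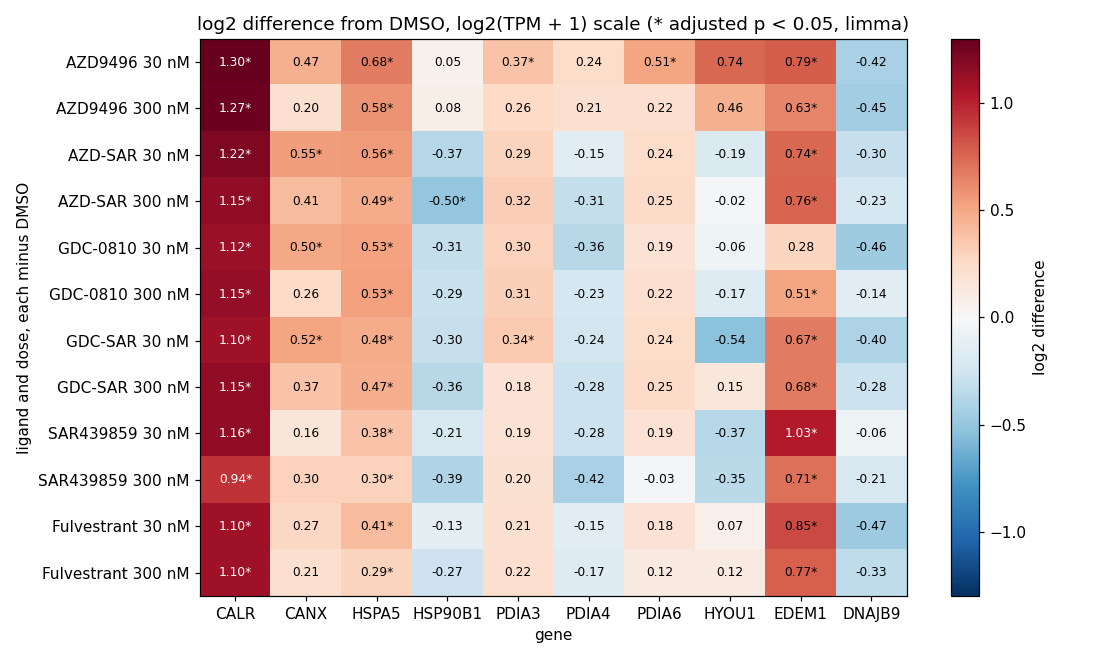
Log2 difference from DMSO on the log2(TPM + 1) scale for each ligand and dose (rows) and each gene (columns), with an asterisk where the limma adjusted p was below 0.05. The CALR column runs from 0.94 to 1.30 and the HSPA5 column from 0.29 to 0.68, all called, and the DNAJB9 column is negative throughout with no call.

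Among the lectin chaperones, CALR (chr19:12938578-12944489, plus strand, GRCh38), which encodes the soluble calcium-binding chaperone calreticulin, changed most. It had 774, 698 and 766 TPM with 30 nM AZD9496 and 798, 740 and 665 TPM with 300 nM AZD9496, against 278, 308 and 322 TPM with DMSO. The lowest AZD9496 library was thus above the highest DMSO library, and the ratios of means were 2.46 at 30 nM and 2.43 at 300 nM. The log2 differences were 1.30 and 1.27 (SE 0.13 each), with limma adjusted p of 1.7e-07 and 2.64e-07. For the other ligands the log2 difference from DMSO ranged from 0.94 with 300 nM SAR439859 to 1.22 with 30 nM AZD-SAR. No alternative setting ended a CALR call. The AZD9496 groups had the 2 highest CALR means, but CALR was called in none of the 10 comparisons of AZD9496 with another ligand, and 14 of the 30 libraries of the other ligands reached the lowest AZD9496 value. An antisense gene, AC092069.1, overlaps CALR, and CANX, HSP90B1, PDIA3, PDIA6, HYOU1, EDEM1 and DNAJB9 also overlap genes on the opposite strand. Whether counting used strand is not given in the sources used here, so shared reads leave these levels uncertain, while HSPA5 and PDIA4 overlap no annotated gene.

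CANX, the membrane-bound lectin chaperone calnexin, was higher than DMSO in estimate in 12 of 12 comparisons but was called in only 3. These were 30 nM AZD-SAR (351 ± 11.2 TPM), 30 nM GDC-0810 (340 ± 21.2 TPM) and 30 nM GDC-SAR (343 ± 25.6 TPM), against 240 ± 16.5 TPM with DMSO. The log2 differences were 0.55, 0.50 and 0.52 in that order (SE 0.16 each), with limma adjusted p of 0.0159, 0.0322 and 0.0215. With 30 nM AZD9496, CANX had 393, 272 and 340 TPM, and the difference of 0.47 missed the threshold (limma adjusted p = 0.0608). Its libraries spread widely within that group, and all 3 lay above the highest DMSO library at 259 TPM. Each of the 3 CANX calls was lost without DMSO replicate 2 or without DMSO replicate 3, with adjusted p between 0.0571 and 0.101.

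PDIA3 encodes the disulfide isomerase that works with both lectins. It had 76.3, 65.4 and 72.1 TPM with 30 nM AZD9496, against 55.1, 56.2 and 53.1 TPM with DMSO, so the groups did not overlap. The log2 difference was 0.37 (SE 0.12, limma adjusted p = 0.0465), and 30 nM GDC-SAR gave 0.34 (limma adjusted p = 0.0445). In the other 10 comparisons the estimates lay between 0.18 and 0.32 and none was called. The 30 nM GDC-SAR call was lost on leaving out any 1 library of GDC-SAR or DMSO. The 30 nM AZD9496 call ended under median-of-ratios scaling (0.16, adjusted p = 0.513), without a filter on low values (0.0891), and without AZD9496 replicate 1 or 3 or any single DMSO library. The pseudogenes PDIA3P1 and PDIA3P2 were listed at 2.56 to 11.2 TPM and 0 to 16.9 TPM, and reads shared with them leave the PDIA3 level uncertain.

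In the HSP70 system of the lumen, HSPA5 had 87.1, 80.1 and 90.2 TPM with 30 nM AZD9496 and 83.7, 85.5 and 71.9 TPM with 300 nM AZD9496, against 52.5 to 54.4 TPM in the DMSO libraries. Every AZD9496 library was above every DMSO library. The log2 differences were 0.68 and 0.58 (SE 0.088 each), with limma adjusted p of 5.76e-06 and 7.42e-05. With the other ligands HSPA5 averaged at most 78.7 ± 1.96 TPM, with 30 nM AZD-SAR, and its smallest difference from DMSO was 0.29 with 300 nM Fulvestrant (limma adjusted p = 0.0211). That call was lost without Fulvestrant 300 nM replicate 1 (0.0848), DMSO replicate 1 (0.057) or DMSO replicate 3 (0.0649). The calls for SAR439859 were lost at 30 nM when only the libraries compared were fitted (0.115) and at 300 nM without replicate 1 (0.0708).

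HYOU1 (GRP170) releases nucleotide from HSPA5 so that it can let go of its clients. It had 46.7, 39.2 and 48.1 TPM with 30 nM AZD9496 and 38, 42.7 and 29.6 TPM with 300 nM AZD9496, against 29.3, 26.2 and 23.5 TPM with DMSO. All 6 AZD9496 libraries were above all 3 DMSO libraries, while the median gene was also higher, by 0.18 at 30 nM and 0.10 at 300 nM. The log2 differences of 0.74 and 0.46 (SE 0.31 each) were not called, with limma adjusted p of 0.119 and 0.455. With the other ligands the estimates ran from -0.54 to 0.15, none of them called.

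DNAJB9 (ERdj4) is a DnaJ-type partner of HSPA5 and, in mammalian cells, a repressor of IRE1. Its mean was highest in DMSO, with 25.5, 29.6 and 24.1 TPM, and its estimate was below 0 in all 12 comparisons, from -0.47 to -0.06. With AZD9496 it had 23.5, 18.2 and 17 TPM at 30 nM and 20.5, 18.2 and 18.4 TPM at 300 nM. All 6 lay below the lowest DMSO library, but neither difference (-0.42 and -0.45, SE 0.18 each) was called, with limma adjusted p of 0.133 and 0.154. Median-of-ratios scaling brought the 30 nM difference past the threshold (-0.63, adjusted p = 0.0409), and also that of 30 nM Fulvestrant (-0.57, adjusted p = 0.037). Other settings gave DNAJB9 calls for 30 nM Fulvestrant and 30 nM GDC-0810, with limma adjusted p between 0.0247 and 0.0478. DNAJB9 overlaps PNPLA8 and THAP5, which lie on the other strand.

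HSP90B1 (GRP94), the HSP90 chaperone of the lumen, and PDIA4 (ERp72), a disulfide isomerase, had means above DMSO with AZD9496 and below DMSO with every other ligand and dose, and of these 24 differences from DMSO 1 was called. HSP90B1 had 380, 485 and 461 TPM with 30 nM AZD9496 and 442, 501 and 401 TPM with 300 nM AZD9496, against 407, 429 and 435 TPM with DMSO. Its differences from DMSO were 0.05 and 0.08 with 95% intervals from -0.27 to 0.38 and from -0.25 to 0.40, and both changed sign under median-of-ratios scaling (-0.16 and -0.04). The other 10 estimates ran from -0.13 to -0.50, and only 300 nM AZD-SAR was called (300 ± 18.6 TPM, limma adjusted p = 0.0193). That call was lost without AZD-SAR 300 nM replicate 2 (0.0811), DMSO replicate 2 (0.0565) or DMSO replicate 3 (0.0589).

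PDIA4 had 29.6, 30.4 and 35.6 TPM with 30 nM AZD9496 and 32.4, 32.9 and 27.7 TPM with 300 nM AZD9496, against 25.8, 27.9 and 26.5 TPM with DMSO. Only the lowest AZD9496 library fell within the DMSO range. The differences from DMSO, 0.24 and 0.21, were not called, and the other 10 estimates, from -0.15 to -0.42, were not called either. Median-of-ratios scaling reduced the AZD9496 differences to 0.03 and 0.09. It brought SAR439859 past the threshold at 30 nM (-0.39, limma adjusted p = 0.0477) and 300 nM (-0.43, 0.0297). Leaving out replicate 3 of the ligand did so for 300 nM SAR439859 (-0.56) and 300 nM AZD-SAR (-0.51), with limma adjusted p of 0.0197 each. For the related isomerase PDIA6 (P5), 55.1, 47.5 and 48.7 TPM were found with 30 nM AZD9496, against 39, 34.4 and 32.1 TPM with DMSO. That difference, 0.51 (SE 0.13), was called (limma adjusted p = 0.00868), and no other ligand or dose gave a PDIA6 call. It was lost under median-of-ratios scaling (0.30, adjusted p = 0.133), without AZD9496 30 nM replicate 1 (0.0586) and without DMSO replicate 3 (0.0566). With 300 nM AZD9496, PDIA6 averaged 41.2 ± 6.07 TPM.

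EDEM1, a lectin-like mannosidase homolog that hands misfolded glycoproteins to degradation, had 18.9, 19.6 and 20.1 TPM with 30 nM AZD9496 and 18.7, 19.5 and 14.4 TPM with 300 nM AZD9496, against 10.3, 10.7 and 11.6 TPM with DMSO. No treated library overlapped the DMSO libraries. The log2 differences with AZD9496 were 0.79 and 0.63 (SE 0.15 each), with limma adjusted p of 7.14e-04 and 0.00846. The call at 300 nM was lost without AZD9496 300 nM replicate 2 (0.0601) and when only the libraries compared were fitted (0.0617). EDEM1 was highest with 30 nM SAR439859 (20.4, 20.5 and 30.2 TPM), where the highest value came from the library that stood apart. It was lowest among treated groups with GDC-0810, at 13.4 ± 1 TPM with 30 nM, where the difference of 0.28 was not called (limma adjusted p = 0.206), and at 16 ± 2.16 TPM with 300 nM. The 300 nM GDC-0810 call (0.51, limma adjusted p = 0.0186) was lost without GDC-0810 300 nM replicate 2 or 3, without DMSO replicate 1 or 2, and when only the libraries compared were fitted, with adjusted p between 0.061 and 0.0678.

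Taking the promoters shown above beside these values, CALR and HSPA5, called in all 12 comparisons, each held an ERSE. So did CANX, called in 3 comparisons, PDIA6, called in 1, and HSP90B1, called in 1 and lower there. HYOU1, with its ERSE-II matches, was called in 0. Of the genes with neither element in the window, EDEM1 was called in 11 comparisons and PDIA4 and DNAJB9 in 0.

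The second comparison asked how AZD9496 differed from each other ligand at the matched dose, 10 pairs that leave DMSO aside but share the AZD9496 libraries. HSP90B1, PDIA4 and HYOU1 were higher with AZD9496 in estimate in all 10 pairs, both as deposited and after median-of-ratios scaling, though few pairs were called. The same sign in all 10 pairs was seen for 20.9% of all genes as deposited and for 12% after scaling. CALR and HSPA5 were also above 0 in 10 pairs as deposited, but in 8 and 7 pairs after scaling. The scaling matters here because it lowered the log2 difference of the median gene at 30 nM by 0.17 for AZD9496 against GDC-0810, 0.15 against GDC-SAR, 0.11 against AZD-SAR and 0.18 against DMSO.

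At 30 nM, 2 of the 10 genes were called higher with AZD9496 than with SAR439859 (4.25% of all genes called higher) and 1 than with GDC-SAR (4.2%). Limma called 0 against AZD-SAR (1.51%), 0 against GDC-0810 (0.0208%) and 0 against Fulvestrant (1.74%), with 4, 5 and 4 genes at an unadjusted p below 0.05 in that order. Here and below, counts at an unadjusted p stand without the share of all genes at that threshold. No excess over all genes is therefore read from them. At 300 nM, 2 were called higher with AZD9496 than with AZD-SAR (6.4%) and 2 than with SAR439859 (5.58%). Limma called 0 against GDC-0810 (1.02%), 0 against GDC-SAR (3.03%) and 0 against Fulvestrant (1.68%), with 3, 2 and 3 genes at an unadjusted p below 0.05. None of the 10 genes was called lower with AZD9496 in any of these pairs.

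PDIA4 separated the ligands most clearly by library. The 6 AZD9496 libraries held 27.7 to 35.6 TPM (median 31.4), against 15.7 to 28.7 TPM (median 22.8) in the 30 libraries of the other ligands. Only 1 of those 30 reached the lowest AZD9496 value, a separation at least this clean being found in 1.41% of all genes tested. The log2 differences ranged from 0.38 to 0.63 (SE 0.16), and 2 were called, against 300 nM SAR439859 (limma adjusted p = 0.0162) and 300 nM AZD-SAR (limma adjusted p = 0.0463). Against 30 nM SAR439859 and 30 nM GDC-0810 the adjusted p was 0.0531 and 0.0763.

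HYOU1 held 29.6 to 48.1 TPM (median 40.9) in the AZD9496 libraries, against 13.4 to 45.5 TPM (median 22.6) with the other ligands, and 8 of those 30 libraries reached the lowest AZD9496 value. It was called at 30 nM against SAR439859, with 44.7 ± 4.78 TPM with AZD9496 and 20.2 ± 2.19 TPM with SAR439859 (log2 difference 1.11, limma adjusted p = 0.0292). At the same dose AZD9496 was also above GDC-SAR at 18 ± 3.99 TPM (1.28, limma adjusted p = 0.0154). At 300 nM the differences ran from 0.31 to 0.80 and none was called.

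HSP90B1 was called once, with 448 ± 50.2 TPM with 300 nM AZD9496 and 300 ± 18.6 TPM with 300 nM AZD-SAR (log2 difference 0.57, limma adjusted p = 0.0231). HSPA5 was called against SAR439859 at 30 nM, with 85.8 ± 5.2 TPM with AZD9496 and 69.6 ± 7.75 TPM with SAR439859 (0.30, limma adjusted p = 0.0386). At 300 nM it had 80.4 ± 7.4 TPM with AZD9496 and 65.9 ± 3.84 TPM with SAR439859 (0.28, limma adjusted p = 0.0484). Each of the 7 calls was lost in at least 2 of the settings that left out a single library, with AZD9496 replicate 1 of the dose among the deciding libraries for every one but HSP90B1. Fitting only the libraries compared ended every one except HYOU1 against 30 nM GDC-SAR (adjusted p = 0.0382), with values of 0.114 to 0.548 for the others. Without a filter on low values HYOU1 against 30 nM SAR439859 (0.062), HSPA5 against 300 nM SAR439859 (0.0666), and HSP90B1 (0.0506) and PDIA4 (0.0915) against 300 nM AZD-SAR were lost. Median-of-ratios scaling ended both HSPA5 calls (0.107 and 0.139) and PDIA4 against 300 nM AZD-SAR (0.0632).

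**Figure D3:**
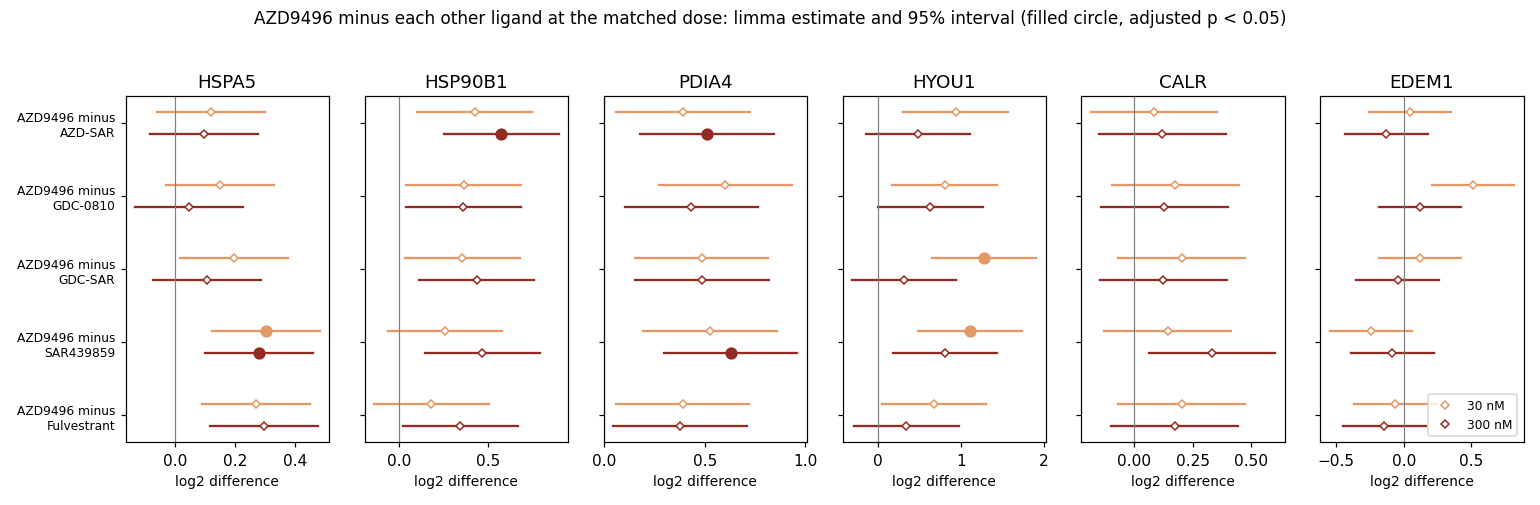
AZD9496 minus each other ligand at 30 nM (light) and 300 nM (dark) for 6 of the genes, as limma log2 differences with 95% intervals, filled circles marking an adjusted p below 0.05. PDIA4 runs from 0.38 to 0.63 with no interval reaching 0, HSP90B1 and HYOU1 estimates all lie above 0, and EDEM1 estimates lie on both sides of 0.

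The change of side chain could be read on both scaffolds. On the AZD9496 scaffold it is the AZD9496 against AZD-SAR pair above, with HSP90B1 and PDIA4 called at 300 nM. On the other scaffold, GDC-SAR was set against GDC-0810, and limma called 0 of the 10 genes at 30 nM (1.28% of all genes called) and 0 at 300 nM (1.25%), with 1 and 0 genes at an unadjusted p below 0.05. The gene at 30 nM was EDEM1, at 18.1 ± 3.47 TPM with GDC-SAR and 13.4 ± 1 TPM with GDC-0810 (log2 difference 0.39, 95% interval 0.09 to 0.70, limma adjusted p = 0.314). For PDIA4 the GDC-SAR minus GDC-0810 difference at 30 nM was 0.12, with a 95% interval from -0.21 to 0.45.

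Whether the side chain acted differently on the 2 scaffolds was tested as (AZD-SAR minus AZD9496) minus (GDC-SAR minus GDC-0810). Limma called 0 of the 10 genes at 30 nM (0% of all genes) and 0 at 300 nM (0.00694%), with 2 and 1 at an unadjusted p below 0.05. The estimate for PDIA4 was -0.51 at 30 nM (95% interval -0.98 to -0.04, adjusted p = 0.891) and for HSP90B1 -0.50 at 300 nM (-0.95 to -0.04, adjusted p = 0.293). The widest interval at 300 nM was that of HYOU1, from -1.69 to 0.09 around an estimate of -0.80.

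Between AZD-SAR and GDC-SAR, which share the side chain and differ in scaffold, limma called 0 of the 10 genes at 30 nM (0% of all genes) and 0 at 300 nM (0%), and 0 had an unadjusted p below 0.05 at either dose. The widest intervals were those of HYOU1, from -0.28 to 0.97 at 30 nM and from -0.80 to 0.46 at 300 nM. Comparing 300 with 30 nM of the same ligand, limma called 0 of the 10 genes for any of the 6 ligands (0% of all genes in each). For CALR the 300 minus 30 nM difference with AZD9496 was -0.02, with a 95% interval from -0.30 to 0.25. An unadjusted p below 0.05 was found for 1 gene each with AZD9496 (PDIA6), GDC-SAR (HYOU1) and SAR439859 (EDEM1) and for 0 with AZD-SAR, GDC-0810 and Fulvestrant.

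The rest of the unfolded protein response was read from gene lists of the same pathway, against DMSO. Of all genes tested, 9.21% were called higher and 2.05% lower with 30 nM AZD9496, and 3.71% higher and 2.21% lower with 300 nM AZD9496, and the list counts are read against these shares. Of 37 tested chaperones and folding enzymes beyond the 10, 4 rose and 0 fell with 30 nM AZD9496, and 1 rose and 0 fell with 300 nM AZD9496, close to the shares of all genes. The list medians, 0.15 and 0.05, were below those of all genes tested, 0.18 and 0.10. P4HB, the main protein disulfide isomerase, rose with 30 nM AZD9496 to 1190 ± 88.3 TPM, against 763 ± 41.9 TPM with DMSO (0.64), while at 300 nM the difference of 0.39 was not called. QSOX1, a sulfhydryl oxidase, rose with both doses (0.59 and 0.69), with 33.8 ± 4.52 TPM at 300 nM, against 20.5 ± 1.68 TPM with DMSO. Several known targets of ATF6 and XBP1 were not called with either dose. SDF2L1 had 38.7 ± 6.3 TPM with 300 nM AZD9496, against 29.2 ± 2.49 TPM with DMSO, and MANF, a secreted folding factor, had 60.4 ± 2.59 TPM, against 49.4 ± 0.458 TPM. CRELD2 (0.16), DNAJB11 (0.08) and DNAJC3 (-0.26) were likewise not called at 300 nM.

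Among 18 tested sensors and transcription factors of the response, 4 rose and 1 fell with 30 nM AZD9496, and 3 rose and 0 fell with 300 nM AZD9496, where 9.21% and 3.71% of all genes rose. The 3 at 300 nM were the membrane-bound factors CREB3L4 (0.84), CREB3L1 (0.69) and CREB3L2 (0.53), which are cleaved in the Golgi like ATF6. CREB3L1 had 83.5 ± 6.94 TPM with 300 nM AZD9496, against 51.3 ± 2.35 TPM with DMSO, and was called higher with all 6 ligands at both doses. The CREB3L2 call was lost without a single library, with adjusted p up to 0.142 without DMSO replicate 3. The mRNA of XBP1 had 380 ± 39.2 TPM with 30 nM and 321 ± 29.2 TPM with 300 nM AZD9496, against 342 ± 42.8 TPM with DMSO, and was not called. Gene-level TPM do not separate its spliced form. XBP1 fell with GDC-SAR at both doses (-0.43 and -0.50) and at 300 nM with AZD-SAR (-0.42), SAR439859 (-0.47) and Fulvestrant (-0.69). ATF4 (0.03), DDIT3 (0.24), ERN1 (0.33), ATF6 (0.15) and EIF2AK3 (0.41) were not called with 300 nM AZD9496. EIF2AK3, which encodes PERK, was called higher with AZD-SAR, GDC-0810 and GDC-SAR at both doses and with 300 nM SAR439859.

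Of 12 tested targets of the ATF4 branch, 1 rose and 0 fell with AZD9496 at either dose (9.21% and 3.71% of all genes rose at 30 and 300 nM), the gene being DDIT4, an inhibitor of mTORC1 (0.79 at 300 nM, 109 ± 5.59 TPM with AZD9496 and 62.3 ± 4.36 TPM with DMSO). Of 30 genes for degradation at the endoplasmic reticulum, 3 rose and 0 fell at 30 nM, close to the share of all genes. At 300 nM 2 rose and 0 fell, namely OS9, a lectin of that pathway (0.57), and the ubiquitin ligase MARCH6 (0.69). HERPUD1, a scaffold of the same machinery, had 245 ± 35.1 TPM with 300 nM AZD9496, against 174 ± 35 TPM with DMSO, and was not called, whereas it was called higher with AZD-SAR, GDC-SAR, SAR439859 and Fulvestrant at both doses. Without DMSO replicate 2 the AZD9496 difference for HERPUD1 was called as well (adjusted p = 0.0441). The OS9 and MARCH6 calls were lost without a single library, with adjusted p up to 0.129 for OS9 (without DMSO replicate 2) and 0.145 for MARCH6 (without AZD9496 replicate 3).

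Of 35 genes for translocation and glycosylation, 2 rose and 2 fell with 30 nM AZD9496, and 0 rose and 1 fell with 300 nM AZD9496, so most were not called. Among all genes 9.21% rose and 2.05% fell at 30 nM and 3.71% rose and 2.21% fell at 300 nM. The gene called at 300 nM was SRP54, which binds signal sequences, at 119 ± 25.4 TPM with AZD9496 and 162 ± 14.9 TPM with DMSO (-0.46). Of 28 genes for transport to the Golgi, 6 rose and 0 fell at 30 nM and 2 rose and 0 fell at 300 nM, the coat gene COPB2 (0.54) and the exit-site scaffold SEC16A (0.64). The calls at 300 nM AZD9496 were lost without a single library for COPB2 (adjusted p up to 0.178, without AZD9496 replicate 1) and SRP54 (up to 0.203, without AZD9496 replicate 3).

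Of 23 cytosolic and mitochondrial heat shock genes, 2 rose and 3 fell with 30 nM AZD9496, and 0 rose and 7 fell with 300 nM AZD9496, with list medians of -0.19 and -0.45. Of all genes, 2.05% fell at 30 nM and 2.21% at 300 nM. With the other ligands 11 to 14 of the 23 were called lower than in DMSO, against 7.82% to 12.8% of all genes. HSPB8, a small heat shock protein, fell to 50 ± 3.65 TPM with 300 nM AZD9496, against 100.4 ± 8.09 TPM with DMSO (-0.99). The mitochondrial chaperonin HSPD1 (-0.71), the steroid receptor co-chaperone FKBP4 (-0.56), the inducible HSPA1B (-0.54) and the constitutive HSPA8 (-0.53) fell as well, while HSPA1A (-0.55) was not called except under median-of-ratios scaling (adjusted p = 0.00707). The HSPA1B call was lost without a single library, with adjusted p up to 0.113 without DMSO replicate 2. HSPA1A and HSPA1B are near-identical, so reads may be split between them. The plot of list medians shows the heat shock genes below 0 and the 10 endoplasmic reticulum genes above 0 for every ligand and dose.

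**Figure D4:**
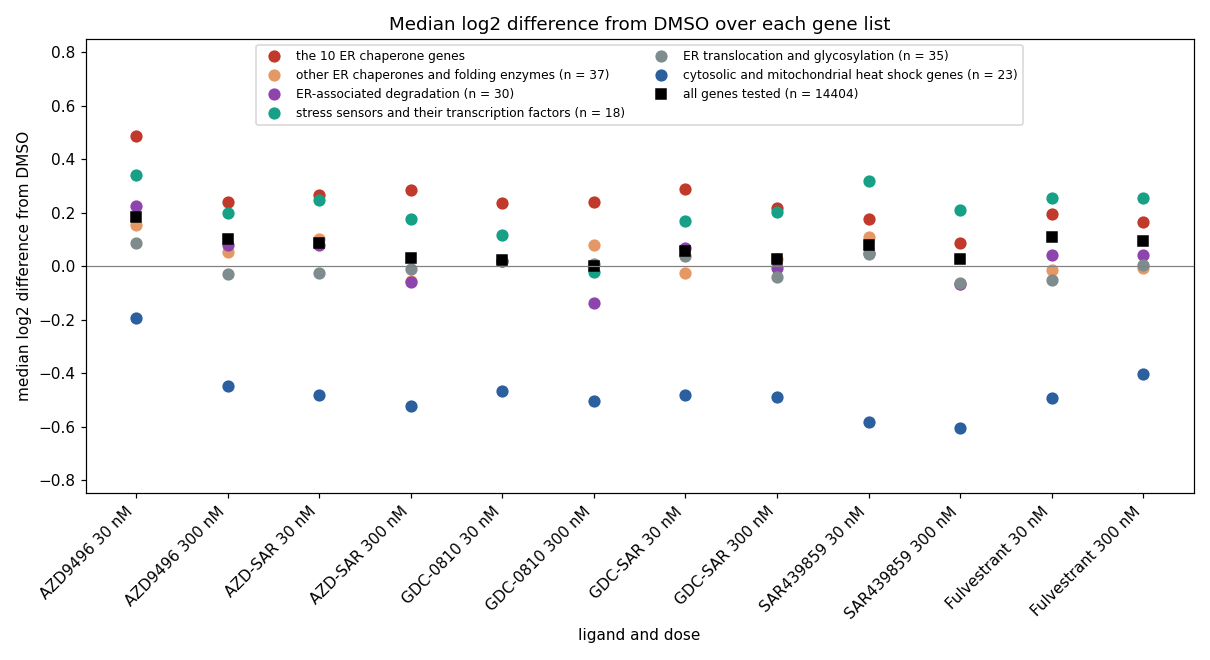
Median log2 difference from DMSO over each gene list (circles) and over all 14404 genes tested (squares), for each ligand and dose. The 10 chaperone genes run from 0.09 to 0.49, the 23 heat shock genes from -0.61 to -0.19, and all genes from 0.00 to 0.18.

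In the direct comparisons at 30 nM, 3 of the 23 heat shock genes were called higher with AZD9496 than with AZD-SAR (1.51% of all genes), 7 than with GDC-SAR (4.2%), 8 than with SAR439859 (4.25%) and 6 than with Fulvestrant (1.74%). At 300 nM the counts were 3 against AZD-SAR (6.4%), 4 against GDC-SAR (3.03%), 6 against SAR439859 (5.58%) and 4 against Fulvestrant (1.68%), and 0 were called lower in any of these. FKBP4 had 160 ± 8.1 TPM with 30 nM and 153 ± 12.2 TPM with 300 nM AZD9496, against 226 ± 28.7 TPM with DMSO, and it was called higher with AZD9496 than with AZD-SAR, GDC-SAR, SAR439859 and Fulvestrant at both doses, by log2 differences of 0.86 to 1.36. HSPB8 and HSPA8 were called higher with AZD9496 against the same 4 ligands at both doses. Against GDC-0810 none of the 23 genes was called at either dose by limma, with 5 and 8 at an unadjusted p below 0.05.

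Across the 13 group means of log2(TPM + 1), the genes most like the mean of the 10 chaperones included FAM63A (Pearson r = 0.942), HK1 (0.933), ADIRF-AS1 (0.919), ANO8 (0.918), SREBF2 (0.915), PPM1G (0.912) and UPF1 (0.91). Those most like CALR were RPL10P3 (0.973), CEACAM5 (0.938), PPP1R11 (0.928), EP300 (0.926) and MRPL41 (0.925). Among the 10 themselves, HSPA5 followed PDIA3 (0.893) and CALR (0.878), and PDIA4 followed HSP90B1 (0.875) and HYOU1 (0.781), while CALR and PDIA4 did not move together (-0.03). These are descriptions over 13 points from the same libraries, with DMSO far from the rest for CALR. The AZD9496 groups held the 2 highest means of PDIA4, HSP90B1 and HYOU1, and their correlations without those groups were not computed.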

How the data were processed

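Total RNA was extracted with DNase treatment and made into stranded libraries, per the labels' protocols. STAR and GRCh38 are named in the submitters' processing notes; the version, the counting step, its strand setting and its annotation are not stated in the material at hand. TPM values per symbol were deposited by the authors and were used as they stand. No pair of libraries was identical. The labels give 3 libraries per group, while the series text speaks of duplicates.

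Genes averaging 1 TPM or more over the libraries were tested on log2(TPM + 1), a scale that understates changes of low genes. A limma 3.58.1 model (R 4.3.3) with 1 mean per group (26 residual degrees of freedom) and a trended empirical Bayes variance gave 34 comparisons, adjusted by the Benjamini-Hochberg method within each over all 14404 genes. In simulated data for AZD9496 300 nM against DMSO over 14404 genes, 11 of 100 changes of 0.5 log2 and 62 of 100 changes of 1 log2 were recovered, with 2 false calls. Only these genes were changed there, while the real comparison called 3.71% of genes higher and 2.21% lower. The adjustment depends on that share, so the recovery rates need not apply to the real comparisons.

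The 10 genes and the lists were chosen with earlier results of these data known. Of the lists, XBP1, ATF4, DDIT3, ERN1, ATF6, EIF2AK3, HERPUD1, SDF2L1, DNAJC3, DNAJB11, MANF, CRELD2, P4HB and HSPA1A were always named, with up to 5 genes per list called in AZD9496 300 nM against DMSO, by size. Likeness used genes with a mean of at least 5 TPM. One of the genes this rule names is not reported here. Overlapping genes come from GENCODE 29 and promoters from RefSeq. Alternatives were a pseudocount of 0.1, no filter on low values (39392 genes), median-of-ratios scaling of TPM, a fit of the compared libraries alone, and omission of each library. A shared fit without SAR439859 30 nM replicate 3 was added after seeing the data.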

Additional observations from a re-analysis of the deposited data

How the results depend on the processing

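Over the 10 genes and all comparisons, 3830 values were recomputed under the alternatives. Of these 3707 kept their side of the threshold, 88 were no longer called, 35 became called and 0 called values changed sign. The calls of CALR against DMSO held under every alternative run. The larger moves in the number of the 10 genes called were as follows, and smaller moves are not listed. Fitting only the libraries compared gave 5 for GDC-0810 30 nM against DMSO. It gave 0 for AZD9496 against SAR439859 at 30 nM, 0 against SAR439859 at 300 nM and 0 against AZD-SAR at 300 nM. Without a filter on low values the count was 3 for GDC-SAR 30 nM against DMSO, 1 for AZD9496 against SAR439859 at 30 nM, 1 at 300 nM and 0 against AZD-SAR at 300 nM. Median-of-ratios scaling gave 1 for AZD9496 300 nM against each of Fulvestrant, SAR439859 and AZD-SAR, and 1 for AZD9496 30 nM against SAR439859. The cause was not tested. Leaving out 1 library at a time gave 3 to 6 genes for AZD9496 30 nM against DMSO, 2 to 5 for SAR439859 300 nM against DMSO, 3 to 4 for GDC-SAR 30 nM against DMSO and 3 to 7 for AZD-SAR 300 nM against DMSO. For AZD9496 against another ligand it gave 0 to 1 against Fulvestrant at 300 nM, 0 to 5 and 0 to 2 against SAR439859 at 30 and 300 nM, 0 to 1 and 0 to 1 against GDC-SAR at 30 and 300 nM, and 0 to 2 against AZD-SAR at 300 nM. Depth is unknown, which limits what can be said of low genes. No paired analysis was run because the labels give no replicate numbers, and those used here only name the libraries in order of accession. The labels do number the libraries, in sequence within each group. In that order CANX and PDIA3 were highest in the first library of most groups. Whether libraries at the same place share a culture or a batch is not labelled and was not tested. Any such sharing is left in the spread that the model used.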
